A study of Homo sapiens with 5 samples.

Results

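SMAD2 binding was examined at the loci of 9 genes known as estrogen response genes of breast cancer cells: GREB1, NRIP1, MYB, TFF1, TFF3, IGFBP4, CA12, CTSD and RET. A locus was the gene's span, given in whole kb on hg19, with 20 kb added on each side. The 9 windows covered 765 kb and held 398 SMAD2 summits from 4 libraries. A summit is the single base that a peak caller lists as the top of a peak. Summits at most 200 bp apart, from any library, were chained into 212 regions, of 115321 in the whole series.

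The libraries came from chromatin immunoprecipitation with an antibody against SMAD2 in T47D, an established human breast cancer line of the luminal type that carries the estrogen receptor. In 2 libraries the cells had received activin A (50 ng/ml for 1.5 h). In the other 2 they had also received palbociclib, an inhibitor of the kinases CDK4 and CDK6 (1 µM for 24 h), and the same activin A treatment. The remaining sample, 1 input library from untreated cells, was the control for peak calling and has no peak list here. All 4 libraries thus carried activin A, no SMAD2 library without activin was analysed, and the labels name neither an added estrogen nor an estrogen antagonist. T47D is a single line, and its identity was not checked because these lists hold no expression values.

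Activin receptors phosphorylate SMAD2, which then enters the nucleus with SMAD4 and is placed on chromatin largely by partner transcription factors. The estrogen receptor binds estrogen response elements, inverted repeats of GGTCA, often far from the genes it controls and often beside the forkhead factor FOXA1. The genes described here are widely used as readouts of that receptor. A change in the number of summits at them is a measure of SMAD2 peaks, not of transcription.

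The loci were rich in SMAD2 summits, and their median rank was near the middle of each list. Activin replicates 1 and 2 listed 85 and 93 summits in the 9 loci, and palbociclib replicates 1 and 2 listed 107 and 113. Per 100 kb this was 11.1, 12.2, 14.0 and 14.8 summits, or 6.34 to 6.67 times the average between the first and last summit of each chromosome. Each summit has a score, read as the −log10 q of its peak, by which it was ranked within its own list. The median summit of the 9 loci ranked at 53.3% and 58.0% with activin alone and at 46.4% and 48.2% after palbociclib, where 0% is strongest. The strongest 10% of each list supplied 4, 4, 5 and 6 of the summits in the loci, which is 4.71% (exact Clopper-Pearson 95% interval 1.30 to 11.6), 4.30% (1.18 to 10.6), 4.67% (1.53 to 10.6) and 5.31% (1.97 to 11.2). By definition that group is 10% of a whole list, and all 4 intervals include 10%, so no shortage of strong summits is read from them. The intervals cover counting error only.

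The total at the 9 loci was higher with palbociclib by about as much as the whole lists were. It averaged 89.0 ± 5.66 (SD, n = 2) with activin alone and 110.0 ± 4.24 (SD, n = 2) with palbociclib, a ratio of 1.24, while the whole lists had a ratio of 1.21. The groups did not overlap, and p was 0.333 by the exact two-sided permutation test, below which a design of 2 against 2 cannot go. As a share of its own list, the total was 0.165% (95% interval 0.132 to 0.204) and 0.171% (0.138 to 0.210) with activin. With palbociclib it was 0.170% (0.139 to 0.205) and 0.173% (0.143 to 0.208). These shares overlapped between groups (exact permutation p = 0.667), their means differed by 0.0034 percentage points, and without the GREB1 locus the difference was −0.0017. With every list trimmed to the length of the shortest, the log2 ratio of the totals fell from 0.31 to 0.09.

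The 9 loci differed widely in how many summits they held. GREB1 held 27, 32, 36 and 42 summits in activin replicates 1 and 2 and palbociclib replicates 1 and 2, or 34.4% of all summits in the 9 loci, and TFF1 held 1 in each. Per 100 kb, averaged over libraries, IGFBP4 was densest with 30.9 summits, followed by CTSD with 29.7 and GREB1 with 22.99. CA12 held 12, MYB 9.81, TFF3 5.0, NRIP1 4.14, RET 3.72 and TFF1 2.22. The neighbouring 200 kb on each side held fewer per 100 kb at 8 of the 9 loci. The exception was TFF1, with 3.24 in its flanks. At IGFBP4 the flanks were also dense, at 17.4 per 100 kb, against 1.25 at MYB and 3.69 at GREB1. The copy number of these loci in T47D was not analysed here.

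**Figure D1:**
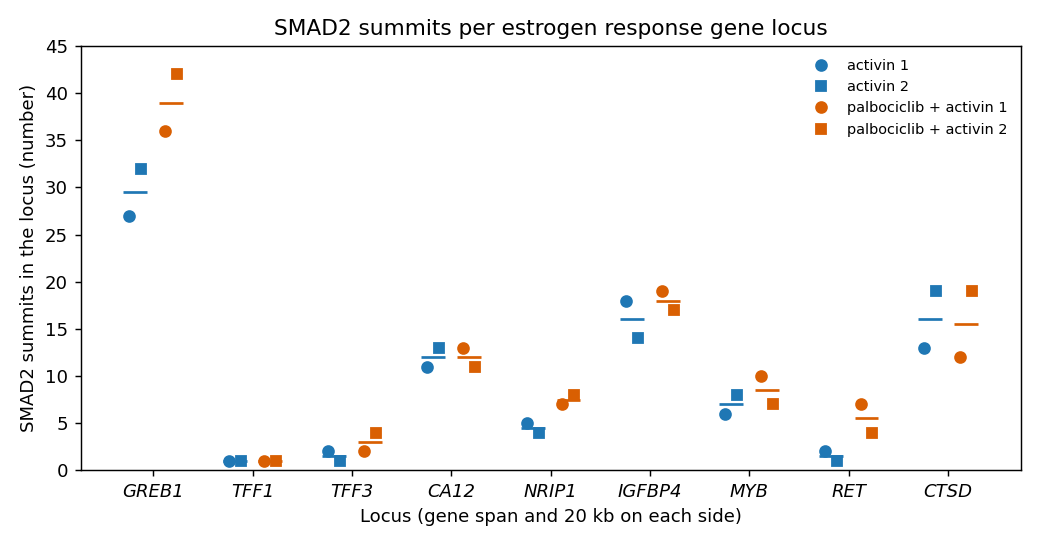
Number of SMAD2 summits (y axis) in each of the 9 loci (x axis) in the 2 activin libraries (blue) and the 2 libraries with palbociclib and activin (orange); circles are replicate 1, squares replicate 2 and lines the group means. GREB1, NRIP1 and RET are the 3 loci where both orange points lie above both blue points.

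At GREB1, NRIP1 and RET both palbociclib counts were above both activin counts, and no locus showed the reverse. That is 3 of 9 loci. Within the gene spans alone, without the added 20 kb, GREB1 still separated the groups (17 and 22 against 24 and 28 summits). NRIP1 then overlapped (2 and 1 against 2 and 4), and RET had no summit in any library. Of all 100-kb stretches of the genome with at least 1 summit, 17.7% had both palbociclib counts higher and 3.18% both activin counts higher. Among stretches with at least 20 summits over the 4 libraries, these shares were 36.8% and 4.26%. GREB1, NRIP1 and RET hold 137, 24 and 14 summits over the 4 libraries, in windows of 149, 145 and 94 kb. NRIP1 and RET are thus sparser per 100 kb than that minimum. Because the windows and the stretches differ in length, 3 in 9 was not read against either share. At equal list lengths GREB1 no longer separated the groups, with 27 and 29 summits against 28 and 30, and 2 of 9 loci did, NRIP1 and RET. The shares of the genome's stretches were then 8.42%, or 12.9% among those with at least 20 summits. No locus passed the exact permutation test, whose p was 0.333 for these 3 loci and at least 0.667 for the others (adjusted p = 1 for each over the 9 loci, Benjamini-Hochberg).

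Every library had a SMAD2 summit within 1 kb of the gene's start at 7 of the 9 loci: GREB1, TFF3, CA12, NRIP1, IGFBP4, MYB and CTSD. TFF1 and RET had none there in any library. Gene starts are known here only in whole kb, and how they were rounded is not stated. Distances may thus be off by up to 1 kb, all in the same direction at a locus. For a summit this near, the side of the start on which it lies is uncertain. Summits within 1 kb of a start numbered 9 and 7 with activin alone, and 10 and 9 after palbociclib. Those within 5 kb numbered 24 and 19, and 26 and 29. Of the 398 summits, 205 lay within a gene's span, 41 in the 20 kb before it and 152 in the 20 kb after it. How often the starts of other genes carry a summit was not measured, since no annotation on hg19 was used. At the margin of the windows, the last 2 kb inside held 4, 3, 2 and 2 summits and the first 2 kb outside held 1, 0, 1 and 2.

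Promoter sequences were taken from RefSeq on GRCh38.p14, where 6 of the 9 genes were matched. GREB1, TFF1 and TFF3 were not matched. The 250 bases before the start are printed for the 5 matched genes with a summit within 1 kb of the start in every library, to show the promoters of the genes with a start-proximal summit. They were not taken as the sequences under the summits, and whether any summit lies in them could not be read. Capitals mark GGTCA or its reverse complement TGACC (an arm of the estrogen response element) and the forkhead motif TGTTTAC, searched on both strands. The positions are on GRCh38.p14 and cannot be set against the summit positions, which are on hg19. CTSD is chr11:1763928-1764177 (minus strand), NRIP1 is chr21:15065001-15065250 (minus), MYB is chr6:135181058-135181307 (plus), CA12 is chr15:63381847-63382096 (minus) and IGFBP4 is chr17:40443200-40443449 (plus).
CTSD: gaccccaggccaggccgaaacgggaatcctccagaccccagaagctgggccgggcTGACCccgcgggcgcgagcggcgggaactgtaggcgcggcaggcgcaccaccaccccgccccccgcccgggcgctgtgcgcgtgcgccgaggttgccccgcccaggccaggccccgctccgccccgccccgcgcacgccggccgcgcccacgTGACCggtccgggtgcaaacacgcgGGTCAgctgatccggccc
NRIP1: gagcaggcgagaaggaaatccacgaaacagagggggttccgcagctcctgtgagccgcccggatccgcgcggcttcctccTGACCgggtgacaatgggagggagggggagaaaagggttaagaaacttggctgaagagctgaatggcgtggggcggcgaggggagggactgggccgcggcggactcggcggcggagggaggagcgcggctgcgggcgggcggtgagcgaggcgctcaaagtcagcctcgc
MYB: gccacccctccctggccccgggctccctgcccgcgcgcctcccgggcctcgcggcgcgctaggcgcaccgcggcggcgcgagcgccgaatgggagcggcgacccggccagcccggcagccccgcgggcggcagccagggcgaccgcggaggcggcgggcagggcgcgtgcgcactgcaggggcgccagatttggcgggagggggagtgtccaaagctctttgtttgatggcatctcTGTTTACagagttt
CA12: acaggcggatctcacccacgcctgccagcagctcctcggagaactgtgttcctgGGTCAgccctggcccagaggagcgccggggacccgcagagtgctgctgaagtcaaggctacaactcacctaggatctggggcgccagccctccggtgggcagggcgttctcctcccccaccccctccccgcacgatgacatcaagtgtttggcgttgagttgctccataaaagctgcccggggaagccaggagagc
IGFBP4: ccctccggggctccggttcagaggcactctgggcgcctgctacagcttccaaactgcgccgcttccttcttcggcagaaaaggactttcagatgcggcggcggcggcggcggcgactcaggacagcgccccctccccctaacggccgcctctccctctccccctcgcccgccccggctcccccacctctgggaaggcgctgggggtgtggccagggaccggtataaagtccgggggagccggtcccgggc

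The CTSD promoter held 3 arms of the element, starting 195, 43 and 18 bases before the start. The CA12 promoter held 1, at 196 bases, and the printed NRIP1 promoter held 1, at 170 bases, while the other 2 RefSeq starts of NRIP1 held none. Of all 35116 RefSeq promoter windows of this length, 32.6% held at least 1 such arm and 1.34% held 3 or more. MYB carried TGTTTAC 14 bases before its start, a motif in 2.98% of all windows. The full palindromic estrogen response element, both arms at their usual spacing (0.0399% of all windows), the SMAD palindrome GTCTAGAC (0.182%) and the AP-1 motif TGANTCA (6.57%) were in none of the 5 printed windows. The GC-rich SMAD motif GGCGC, in 44.5% of all windows, occurred 8 times at MYB, 6 at CTSD, 5 at IGFBP4, 3 at CA12 and 1 time in the printed window of NRIP1. The windows of the other NRIP1 starts held it 9 and 0 times. Both strands were counted, so GGCGCC counts on each. These matches describe the letters and not bound sites.

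The loci also differed in the strength of their strongest summit, with CTSD first and CA12 second in all 4 libraries. At CTSD it ranked at 0.478% to 0.724% of the lists and at CA12 at 0.578% to 2.22%. The CTSD summits lay 25.2 to 27.2 kb after the start, beyond the gene's end, on the side of the gene IFITM10. Whether they belong to CTSD or to that neighbour cannot be told apart here. GREB1 followed, at 3.32% to 6.14%, a range that overlapped that of NRIP1. NRIP1, RET, IGFBP4 and MYB lay between 4.82% and 20.1%, where MYB was the weakest of the 4 in every library and the order of the others varied. TFF3 ranked at 22.8% to 29.9% and TFF1, the last in every library, at 30.2% to 62.7%. In 7 of the 9 loci the strongest summits of all 4 libraries lay within 160 bp of each other. They were 15 bp apart at RET, 31 bp at GREB1, 79 bp at CA12 and 80 bp at IGFBP4. The exceptions were NRIP1, where they spanned 855 bp, and CTSD, where they spanned 2013 bp.

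**Figure D2:**
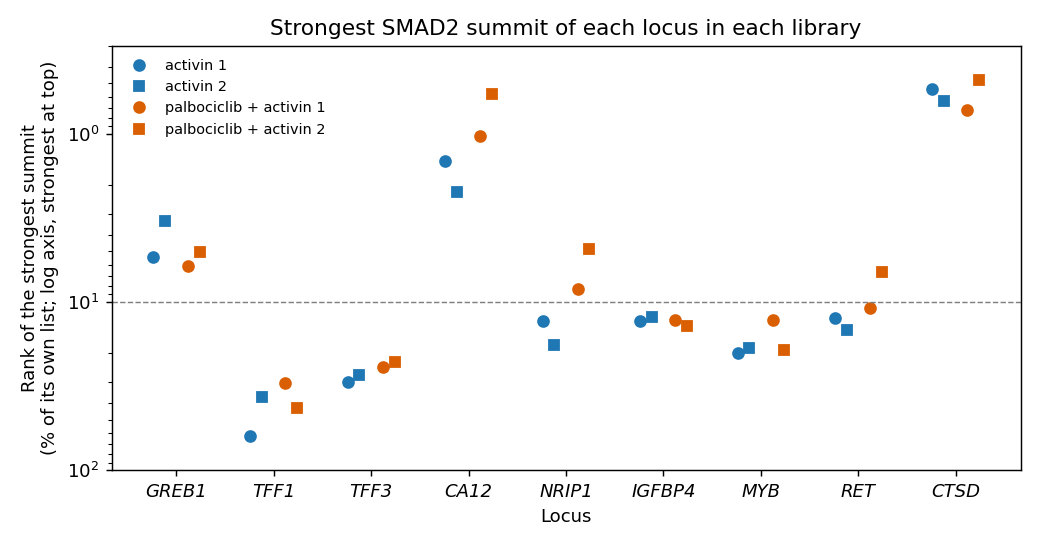
Rank of the strongest SMAD2 summit of each locus (x axis) as a percentage of its own list (y axis, log scale, strongest at the top) in the 2 activin libraries (blue) and the 2 libraries with palbociclib and activin (orange); the dashed line marks the strongest 10%. CTSD, CA12 and GREB1 lie above that line in all 4 libraries, and TFF1 and TFF3 below it in all 4.

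GREB1 encodes a cofactor that binds the estrogen receptor and is needed for estrogen-driven growth. Its locus (chromosome 2, 11674 to 11783 kb) held 77 regions, of which 9 were found in every library. Those 9 lay between −2.72 and 25.4 kb from the start, so the shared SMAD2 regions of GREB1 were all in its first part. The strongest shared region, at 11679719 to 11679750 and 5.73 kb after the start, scored 93.8 and 119 with activin alone and 120 and 122 after palbociclib. It ranked 2793, 1799, 3863 and 3282. At the start itself a weak region (11674050 to 11674333) was found in every library with scores of 4.89, 2.54, 7.20 and 6.45. A second cluster followed the gene's end, on the side where RefSeq places NTSR2, with 7 and 8 summits under activin alone and 9 and 12 after palbociclib. Between 83.3 and 110.8 kb after the start no library had a summit.

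The GREB1 total averaged 29.5 ± 3.54 summits with activin and 39.0 ± 4.24 with palbociclib (SD, n = 2 each), a log2 ratio of 0.40. The groups did not overlap in the lists as deposited. At equal list lengths they did, and the log2 ratio was 0.05. Of the 77 regions, 5 were found in both palbociclib lists and no activin list, and 1 in both activin lists alone. The strongest of the 5 by its worse rank lay 4.38 kb after the start, with scores of 9.49 and 5.89. The activin region, at 11698853 to 11698907, scored 8.66 and 11.1 and lay 563 and 535 bp from the nearest palbociclib summits.

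NRIP1 (RIP140) is an estrogen-induced corepressor of nuclear receptors. Its SMAD2 summits were confined to the gene's start and to the 20 kb beyond its end: over 103 kb of the locus (chromosome 21, 16333 to 16438 kb) between these places, no library listed a summit. The strong summit at the start lay at 16437380 (score 52.7) in activin replicate 1, and at 16437507 (98.1) and 16437436 (125) in the palbociclib replicates. Activin replicate 2 had its strongest summit of the locus at 16438235 instead, with a score of 34.1, at −0.24 kb from the start and 792 bp from the middle of the other 3. For that reason NRIP1 had no region found in every library by the 200-bp rule. Every library still had its strongest summit of the locus within 1 kb of the start as given in whole kb. On which side of the start these summits lie is uncertain. The total was 5 and 4 summits with activin, and 7 and 8 with palbociclib (log2 ratio 0.68, exact permutation p = 0.333). Leaving out each library in turn gave 0.54 to 0.83, and equal list lengths gave 0.58. A region at 16330555 to 16330714, beyond the gene's end, was found in both palbociclib lists alone, with scores of 16.2 and 14.2.

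MYB encodes a transcription factor of which estrogen is known to relieve a block to elongation within the first intron. Summits gathered within 3.2 kb after its start and again about 30 kb into the gene (chromosome 6, 135502 to 135541 kb), and between 3.19 and 28.9 kb no library had one. The strongest shared region, at 135532556 to 135532663 and 30.6 kb after the start, scored 32.8 and 31.9 with activin and 64.9 and 33.8 with palbociclib. A second shared region lay 31.7 kb after the start, with scores of 12.1, 5.24, 23.2 and 10.6. At the start, a region at 135501778 to 135501802 was listed in activin replicate 2 (score 13.5) and both palbociclib replicates (29.3 and 10.6). Activin replicate 1 had its nearest summit 693 bp from there. Totals of 6 and 8, and 10 and 7, overlapped between the groups (log2 ratio 0.26, and 0 at equal list lengths or without palbociclib replicate 1). Palbociclib replicate 1 thus set the direction of that difference.

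**Figure D3:**
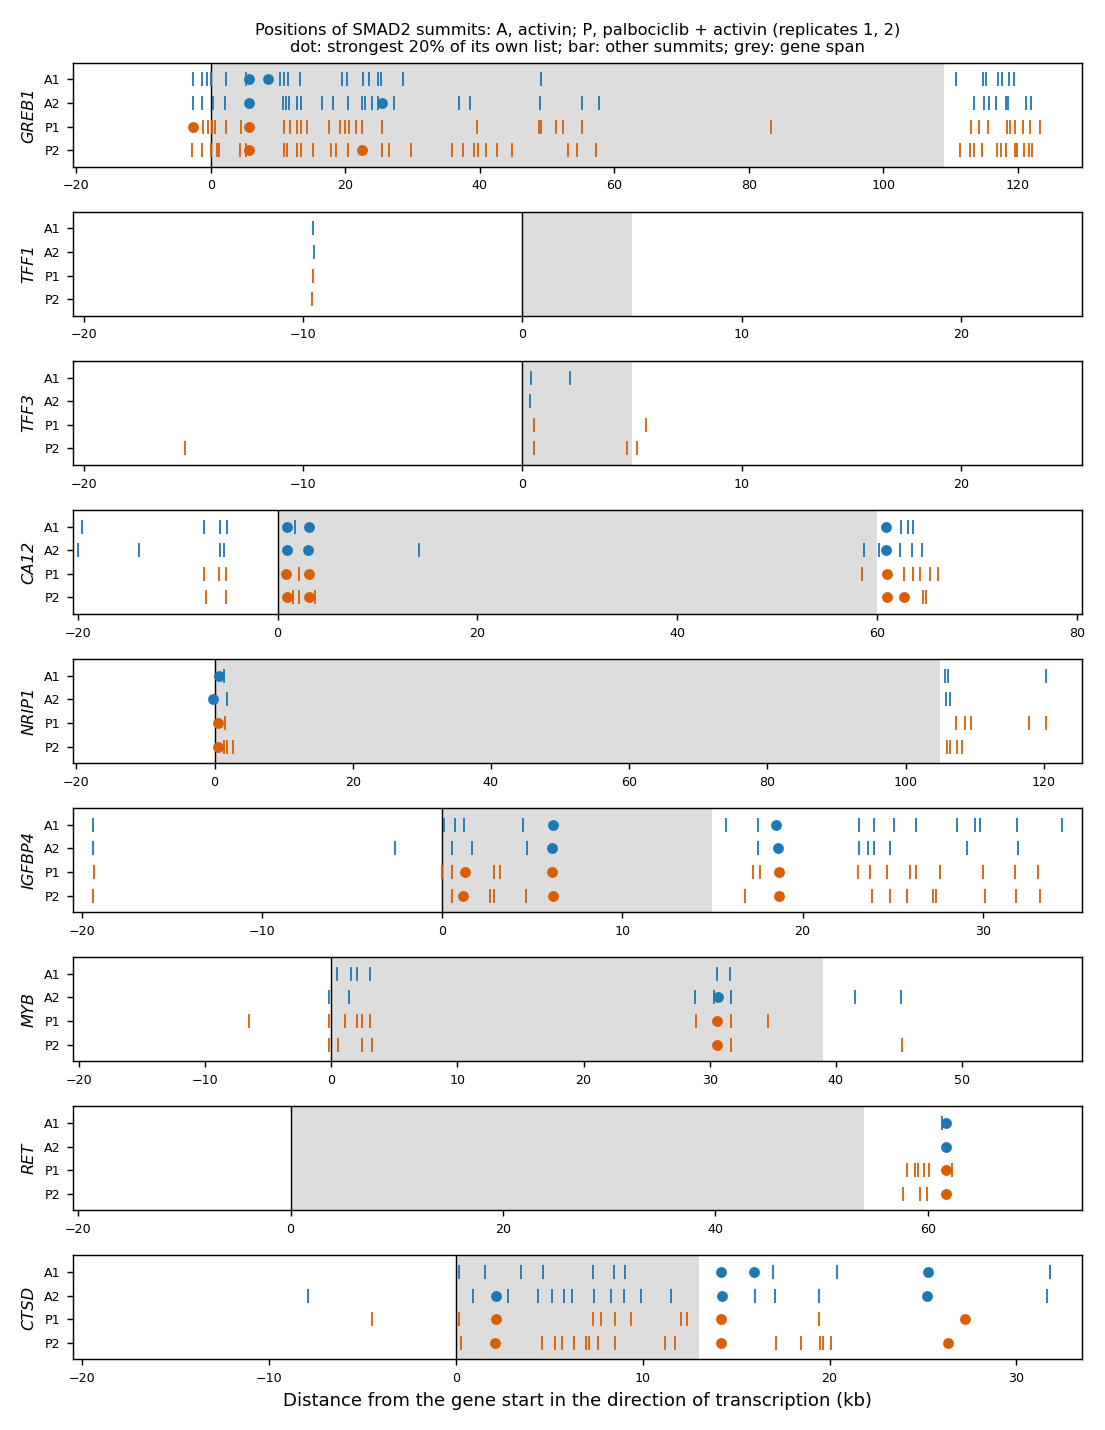
Position of every SMAD2 summit in the 9 loci as distance from the gene's start in kb (x axis), in activin replicates 1 and 2 (A1, A2, blue) and palbociclib with activin replicates 1 and 2 (P1, P2, orange); grey marks the gene span, dots the summits among the strongest 20% of their list and bars all other summits. Summits of GREB1 gather in its first part and again beyond its end, and those of NRIP1 at the start and beyond the end. RET has none within its span.

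TFF1 and TFF3 encode trefoil peptides that are secreted with mucus, and TFF1 (pS2) is the classic estrogen-induced transcript of breast cancer cells. TFF1 (chromosome 21, 43782 to 43787 kb) was the sparsest locus. It had no summit within its span in any library, and 1 region, at 43796521 to 43796613, that was found in every library. This region lay at −9.57 kb from the start, thus before it, on the side where RefSeq places TMPRSS3, with scores of 7.01 and 12.4 with activin and 19.2 and 10.6 with palbociclib. TFF3 (43731 to 43736 kb) differed in having a shared summit within 1 kb of its start as given in whole kb. There, at 43735490 to 43735647, the scores were 19.5 and 19.5 with activin and 27.3 and 26.7 with palbociclib. The ranks at TFF3 were alike in all lists, from 14819 to 15424. The other 5 regions of TFF3 were each seen in 1 library only, and its totals of 2 and 1, and 2 and 4, overlapped.

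IGFBP4 encodes a secreted protein that binds insulin-like growth factors and limits their action. Its locus (chromosome 17, 38599 to 38614 kb) was the densest, with 18 and 14 summits under activin and 19 and 17 after palbociclib. The groups overlapped (log2 ratio 0.17, and 0 at equal list lengths or without activin replicate 2). Of its 31 regions, 6 were found in every library. The strongest, at 38605077 to 38605157 and 6.12 kb after the start, scored 52.9 and 52.3 with activin and 66.2 and 52.6 with palbociclib. Another, 18.6 kb after the start and beyond the gene's end, scored 44.6, 46.2, 54.8 and 38.5. The shared region nearest to the start, at 38599529 to 38599722, was weaker, with 11.9, 5.28, 23.7 and 19.3. Most summits of the locus lay after the gene (42 of 68), on the side of TNS4. The 3 regions found in both palbociclib lists alone had scores of 12.7 or lower, and there was no region of the activin lists alone.

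CA12 encodes a membrane-bound carbonic anhydrase, an enzyme that turns carbon dioxide into bicarbonate outside the cell. It had the strongest summit near a start among the 9 genes. At 63674061 to 63674140 (chromosome 15), the scores were 165 and 143 with activin and 267 and 286 with palbociclib. The ranks were 744, 1205, 647 and 377. This region lay 0.90 kb after the start as given in whole kb, a distance within the rounding of that start. A second region 3.12 kb after the start scored 44.6, 35.3, 58.6 and 64.4. Another lay just beyond the gene's end, at 63613950 to 63614069, and scored 46.2, 37.6, 55.3 and 52.4. The remaining region of the 4 found in every library was weaker, at 63680116 to 63680322 (−5.22 kb from the start), with scores of 8.49, 15.7, 14.1 and 16.3. CA12 thus carried strong shared summits at both ends, and between 14.2 and 58.5 kb after the start no library had a summit. The totals were the same on average, at 11 and 13 with activin and 13 and 11 with palbociclib.

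Near the end of CA12, neighbouring regions were split between the treatments. A region at 63612279 to 63612307 was in both palbociclib lists and no activin list (scores 35.6 and 33.8). A region at 63612587 to 63612721 was in both activin lists and no palbociclib list (10.9 and 4.86). They lay close together: the nearest activin summits were 294 and 428 bp from the middle of the palbociclib region. Both groups thus listed summits there, at different bases. The other palbociclib region lay 2.13 kb after the start, with scores of 9.35 and 5.36.

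CTSD encodes cathepsin D, a lysosomal protease that estrogen-responsive breast cancer cells secrete. The number of its summits did not separate the groups, at 13 and 19 with activin and 12 and 19 with palbociclib. The log2 ratio was −0.04. It became 0.25 without activin replicate 2 and 0.24 without palbociclib replicate 1, so no direction is read from it. The strongest region found in every library, at 1771771 to 1771797 (chromosome 11), lay just beyond the gene's end, on the side of IFITM10. It scored 116 and 145 with activin and 210 and 227 with palbociclib, and the positions of the 4 libraries fell within 26 bp. Inside the gene, 2.13 kb after the start, activin replicate 2 (35.6) and the palbociclib replicates (68.2 and 47.04) shared a region, and activin replicate 1 had its summit 562 bp away, with 20.54.

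The strongest summits of the CTSD locus lay further beyond its end, on the side of the neighbouring gene IFITM10, and differed in position. Both activin libraries had theirs at 1760711 and 1760779, with scores of 235 and 226 and ranks of 278 and 344. Palbociclib replicate 1 had its summit at 1758766 (score 301, rank 456) and palbociclib replicate 2 at 1759655 (302, rank 312). All libraries thus listed a very strong peak within 2013 bp. The activin summits agreed within 68 bp, while those of the palbociclib replicates lay 889 bp apart and each on the same side of the activin pair. The nearest activin and palbociclib summits were 1056 bp apart. A list that gives 1 base per peak cannot show whether the peaks themselves overlapped, nor whether they belong to CTSD or to IFITM10.

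CTSD also had 3 other regions of the activin lists alone. The strongest of them, at 1770002 to 1770066, scored 39.3 and 14.8, and the palbociclib replicates had their nearest summits 1761 and 1189 bp away. The remaining 2, at 9.01 and 31.7 kb after the start, had scores of at most 4.05. The only region of the palbociclib lists alone, at 1778220 to 1778374, scored 12.03 and 9.38 and had activin summits 350 and 299 bp away.

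**Figure D4:**
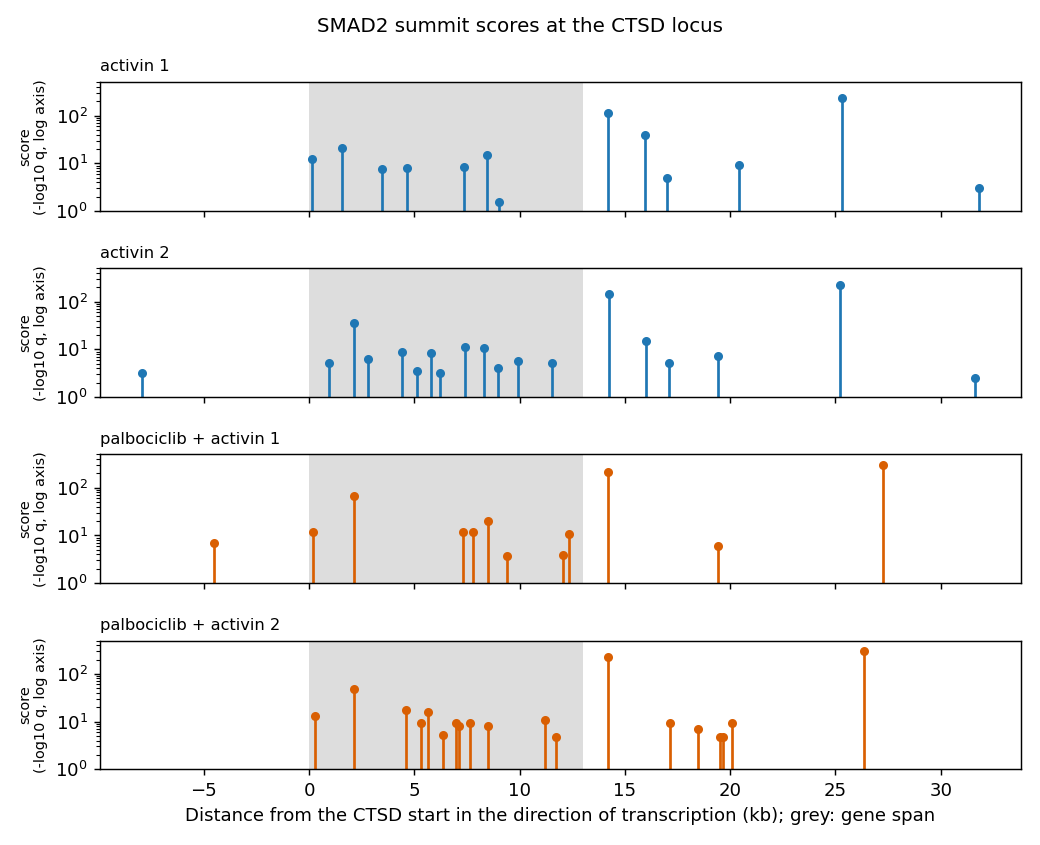
Scores of the SMAD2 summits at the CTSD locus (y axis, −log10 q, log scale) against distance from the gene's start in kb (x axis), 1 panel for each of the 4 libraries, with the gene span in grey. The tall summit near 14 kb has the same position in all 4 panels, and the tallest one lies at 25.3 and 25.2 kb with activin and at 27.2 and 26.3 kb with palbociclib.

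RET encodes the receptor tyrosine kinase for ligands of the GDNF family. No library listed a summit within its span (chromosome 10, 43572 to 43626 kb) or in the 20 kb before it. All 14 summits lay beyond its end, on the side of CSGALNACT2, and the 77.6 kb from the window's edge to the first of them were empty in every library. The shared region there, at 43633743 to 43633758, scored 54.8 and 43.3 with activin and 77.4 and 103 with palbociclib, with positions within 15 bp. Around it, activin replicate 1 had 1 further summit, activin replicate 2 none, and the palbociclib replicates 6 and 3. The total was therefore 1.5 ± 0.71 with activin and 5.5 ± 2.12 with palbociclib (SD, n = 2 each), a log2 ratio of 1.58 (exact permutation p = 0.333). The additional palbociclib summits had scores between 3.33 and 9.41. With trimmed lists of equal length it was 1.32, and it ranged from 1.17 to 2.00 when single libraries were left out. Whether these summits belong to RET or to its neighbour cannot be told apart here.

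Of the 212 regions, 27 (12.7%) were found in every library, against 20.4% of all regions of the series. Another 14 (6.60%) were found in both palbociclib libraries alone, against 5.29% of all regions, and 7 (3.30%) in both activin libraries alone, against 2.22%. These shares were near those of the whole series for the treatment-specific regions, and lower for the shared ones. A single library accounted for 112 regions (52.8%, against 50.8%). Among the shared regions, 3 of 27 (11.1%) were in the strongest 10% of every list, against 15.5% of the shared regions of the series. They were the strongest shared regions of CA12, CTSD and GREB1.

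Few of the treatment-specific regions were strong, as in the series as a whole. Of the 14 palbociclib regions, 0 were in the strongest 10% of both lists, against 0.738% of the 6100 such regions of the series. An activin summit lay within 1 kb of the middle of 11 of the 14 (78.6%), against 50.6% in the series. Summits of all kinds were denser at these loci, and whether that bears on the share was not tested. Of the 7 activin regions, 4 lay at CTSD and 1 was in the strongest 10% of both lists, the region at 1760711; in the series this held for 2.07% of 2559. A palbociclib summit lay within 1 kb of 4 of the 7 (57.1%), against 73.1% in the series. When summits up to 2000 bp apart were chained, 1 region remained on each side. Without activin replicate 1 the palbociclib count was 23, because the activin group then had 1 library, and without either palbociclib library it was 48 to 52. The activin count was 11 to 33 when each library was left out.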

How the data were processed

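SMAD2 peaks in T47D cells were listed for 2 activin libraries and 2 palbociclib and activin libraries. The submitters' processing notes name the build hg19, the aligner Bowtie (1.1.0), Picard and the peak caller MACS2 (2.0.9). Their settings and read filters are not stated in the labels. The authors called peaks per library, and each deposited file lists summits with a score, read as −log10 q from the values: the lowest was 1.31, and a q of 0.05 gives 1.30. Scores and ranks describe summits within a list. Lists hold no reads, so the depth is unknown, and a place without a summit may still be inside a peak. Whether replicates are separate cultures is not stated, so their spread may be technical.

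The lists held 51535 and 54243 (activin) and 62960 and 65207 (palbociclib) summits on chromosomes 1 to 22 and X, converted to 1-based positions. Groups were compared over libraries by exact two-sided permutation tests. Counts per locus had 0.5 added before the log2 ratio. The genes and lists were chosen with earlier results of these data known. All 9 loci are named. In each, the rule took the shared region with the best worst rank, the shared region nearest to the start and up to 3 group-specific regions; other named summits were chosen after their values were seen, as were the tiles of 100 kb (also at equal list lengths), the chaining at 2000 bp and leaving out GREB1. Gene strands came from RefSeq for 6 genes and from general knowledge for GREB1, TFF1 and TFF3. Neighbouring genes were taken by name from RefSeq (GRCh38.p14). Python 3.11.15, numpy 2.4.6, pandas 2.3.3, scipy 1.17.1 and matplotlib 3.10.9 were used, and the region code, tested on simulated data, recovered 379 of 379 regions placed in the 9 windows. The simulated regions lay about 2000 bp apart and each was narrower than the chaining distance. Closer or shifted summits were thus not simulated.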

Additional observations from a re-analysis of the deposited data

How the results depend on the processing

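The log2 ratio of the total at the 9 loci (0.31) kept its direction under the 11 alternatives run, from 0.09 at equal list lengths to 0.48 with scores of at least 5, and was 0.24 to 0.37 without each library. The difference in share of the list (0.0034 percentage points) kept its direction under 10 of 11 alternatives, from 0.00017 to 0.020, and was −0.0017 without the GREB1 locus. For CTSD the log2 ratio of −0.04 became 0.070 and 0.049 with margins of 0 and 10 kb, 0.11 with scores of at least 5, and −0.40 to 0.25 without each library; the cause was not tested. Loci where both palbociclib counts exceeded both activin counts were 3, and 2 at equal list lengths, with GREB1 lost. With no margin GREB1 still separated the groups, while NRIP1 and RET did not, so their separation rested on summits in the added 20 kb. The 27 regions found in every library became 16 and 41 with margins of 0 and 50 kb, and 16 with chaining at 100 bp. The 14 palbociclib regions became 7 with no margin, 8 with chaining at 100 bp, 1 at 2000 bp, 9 without the GREB1 locus, and 20 to 52 without each library. The 7 activin regions became 3 with no margin, 3 with scores of at least 5, 1 with chaining at 2000 bp, and 11 to 33 without each library. With 1 library left in a group, presence in it alone counts, and margins change the length searched. Replicate numbers are shared between groups, but the labels name no shared batch, and libraries of the same number showed a correlation of rank deviations of −0.038. Median scores were alike within a number: 9.46 (activin) and 9.41 (palbociclib) for replicate 1, and 8.34 and 8.39 for replicate 2. Replicate 2 also had the longer list in both groups. Whether the numbers mark a shared batch was not tested. With the replicate block the log2 ratio of the total was 0.31, the difference in share 0.0034, and the regions of 1 library absent from the library of the same number were 59.5 for palbociclib and 40 for activin on average. Unknown read depth limits every count.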
